A study of Rattus norvegicus with 14 samples.

Results

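The HOX genes encode homeodomain transcription factors and lie in the gene clusters A, B, C and D. Their members were taken as all non-control array probes whose gene name begins with Hox, a cluster letter and a paralogue number, and the brightest probe by its mean over the arrays stood for a gene. This gave 30 probes for 27 genes, of 41012 distinct probes and 35480 gene names on the array: 6 genes of cluster A, 7 of cluster B, 8 of cluster C and 6 of cluster D. RefSeq lists 39 protein-coding HOX genes in the rat, so 12 had no probe under this rule: Hoxa3, Hoxa4, Hoxa6, Hoxa11, Hoxa13, Hoxb2, Hoxb4, Hoxb5, Hoxc9, Hoxd8, Hoxd11 and Hoxd12. The probe called Hoxa9 in the files matched Hoxa7 by its RefSeq accession and that called Hoxa9l matched Hoxa9, and both are named here by RefSeq.

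The study hybridized RNA from 7 cultured rat lines to 14 arrays of 1 colour, called A and B for each line. It set hypoblast-type stem cell lines from both sources against each other and a mesenchymal control. Blastocysts gave Fi1 and Fi2 (Fischer rats) and Wk8 (a Wistar-Kyoto rat). Bone marrow of Fischer rats gave the lines CL19, 3C3 and RMAPC-1. The series' title ties the stem cell lines to the MAPC (multipotent adult progenitor cell) culture condition. The control RClone-2 was a mesenchymal line of the Fischer strain, and this single line stands for its kind. Fi1, 3C3, RMAPC-1 and RClone-2 were labelled male, and Fi2, Wk8 and CL19 female. No age, agent or transgene is named in the labels, which also do not say whether arrays A and B came from separate cultures. The line was therefore the unit of replication, arrays A and B were averaged, and the number of lines limits the precision.

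Levels are log2 signals minus the 75th percentile of the same array, so 0 marks that percentile. "Above background" means that the scanner software marked the spot as well above its local background, and a gene was called detected in a line if it was so marked on both arrays. Each array had 61.7% to 68.0% of its probes above background, and the lowest signals marked so lay at levels of -6.66 to -5.80. Arrays A and B differed over 2-fold in 16.9% of tested genes for RMAPC-1 and in 3.17% to 6.50% for the other lines. Slides 1 and 3 carried Fi1, Fi2, Wk8 and CL19, while slides 2 and 4 carried the remaining lines, RClone-2 among them. The labels were checked against markers: of 8 primitive endoderm (hypoblast) genes 7 were higher in stem cells, and all 8 measured mesenchymal genes were higher in RClone-2. Such marker calls had a limma adjusted p under 0.05, as had 24.7% (higher in stem cells) and 22.5% (lower) of all tested genes. Epithelial genes (4 of 4), endothelial genes (4 of 5) and trophoblast genes (2 of 3) were also higher in the stem cell lines, and of 3 haematopoietic genes, Gata1 was higher and Cd48 lower. The part of these differences in the HOX values was not tested. Bulk RNA cannot tell fewer cells expressing a gene from less RNA per cell.

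HOX genes pattern the body axis. Along each cluster they sit in an order that matches where and when they come on in the embryo: low paralogue numbers are used first and towards the head, high numbers later and towards the tail, limb ends and genital region. Connective tissue and mesenchymal cells of the adult keep a HOX code of their place of origin, whereas extraembryonic endoderm lies outside the body axis. Polycomb complexes hold silent clusters closed, Trithorax complexes keep active ones open, and retinoic acid switches on the 3′ genes.

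The probes differ in what part of a gene they read, and several lie in the homeobox, the stretch that all HOX genes share. Sequences of some homeobox probes are shown because their likeness bears on how well signals of different HOX genes can be told apart. Capitals mark bases equal to those of the aligned Hoxa5 probe, in the best ungapped alignment with at least 40 bases of overlap.
Hoxa5: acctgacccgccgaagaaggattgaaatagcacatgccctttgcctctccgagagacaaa
Hoxb6: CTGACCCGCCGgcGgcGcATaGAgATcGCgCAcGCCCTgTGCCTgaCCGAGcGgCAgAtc
Hoxb7: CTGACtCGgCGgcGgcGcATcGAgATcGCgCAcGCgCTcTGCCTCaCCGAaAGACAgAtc
Hoxc6: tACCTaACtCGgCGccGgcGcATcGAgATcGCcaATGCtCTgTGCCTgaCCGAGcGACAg
Hoxa10: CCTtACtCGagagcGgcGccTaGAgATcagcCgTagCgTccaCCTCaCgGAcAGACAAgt
Hoxc10: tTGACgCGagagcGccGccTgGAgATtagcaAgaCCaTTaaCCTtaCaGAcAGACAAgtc
Hoxd9: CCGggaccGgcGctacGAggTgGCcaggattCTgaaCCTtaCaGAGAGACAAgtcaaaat
The Hoxb6 probe equalled that of Hoxa5 at 42 of 58 aligned bases, Hoxb7 at 41 of 58, Hoxc6 at 40 of 59, Hoxa10 at 31 of 59, Hoxc10 at 30 of 58 and Hoxd9 at 25 of 53. The closest pair was Hoxb6 and Hoxb7, with 51 of 60 bases equal, followed by Hoxc6 with either of them (47 of 57). Hoxa10 and Hoxc10 shared 44 of 59. Over all 435 pairs of HOX probes the median was 21 equal bases, and 4 pairs had 45 or more. The Hoxb8 probe, not shown, equalled that of Hoxb7 at 45 of 59 bases. The Hoxc4 probe, also not shown, reads part of the same stretch. It overlaps the Hoxa5 probe there by less than the 40 bases required, so this likeness was not counted. How much signal of one such gene reached the probe of another was not tested. Values of Hoxa5, Hoxb6, Hoxb7, Hoxc4 and Hoxc6 are uncertain in that respect, and so are those of Hoxa10, Hoxc10, Hoxc11 and Hoxd9. The Hoxd9 probe equalled that of Hoxb9 at 40 of 54 bases, Hoxc10 at 38 of 55 and Hoxc11 at 32 of 40. The Hoxc11 and Hoxc12 probes, whose genes moved in opposite directions below, also lie in the homeobox.
Hoxc11: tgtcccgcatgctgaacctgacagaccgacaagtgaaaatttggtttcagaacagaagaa
Hoxc12: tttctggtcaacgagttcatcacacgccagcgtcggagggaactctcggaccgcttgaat
On the files' coordinates (rn4) the probes shown lie at chr4:80502622-80502681 (Hoxa5, minus strand), chr10:85032800-85032859 (Hoxb6, plus), chr10:85020148-85020207 (Hoxb7, plus), chr7:141774182-141774241 (Hoxc6, plus), chr4:80532877-80532936 (Hoxa10, minus), chr7:141734333-141734392 (Hoxc10, plus), chr3:57313651-57313710 (Hoxd9, plus), chr7:141719975-141720034 (Hoxc11, plus) and chr7:141702004-141702063 (Hoxc12, plus).

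Of the 27 genes, 20 were detected in at least 1 line. The mesenchymal line had 15 detected genes, Fi1, Fi2, Wk8 and RMAPC-1 had 13 each, CL19 had 12 and 3C3 had 10. In RClone-2 these were 4 of cluster A, 2 of B, 6 of C and 3 of D. The stem cell lines had 2 or 3 of cluster A, 2 of B, 5 to 7 of C and 0 to 3 of D. Hoxa5, Hoxa7, Hoxb6, Hoxb7, Hoxc4, Hoxc5, Hoxc8 and Hoxc11 were detected in all 7 lines. Hoxa9, Hoxa10, Hoxc10 and Hoxd10 were detected in RClone-2 alone, Hoxd1 in RMAPC-1 alone and Hoxd13 in Fi1 alone. The 7 genes detected in no line were Hoxa2, Hoxb1, Hoxb3, Hoxb8, Hoxb9, Hoxb13 and Hoxd3, each of which was above background on at most 5 of the 14 arrays. They were not tested.

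**Figure D1:**
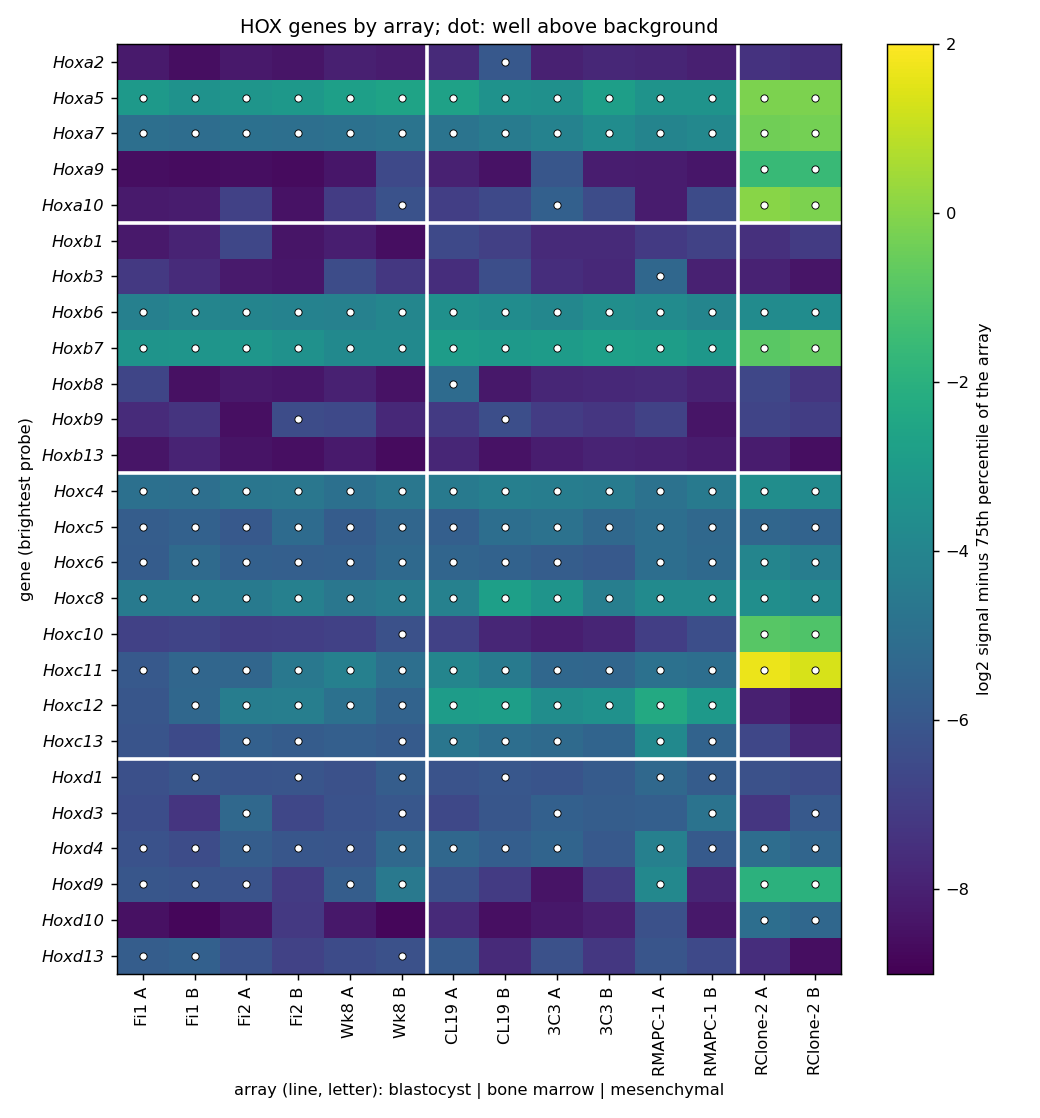
Level of each of 26 HOX genes (rows, by cluster and paralogue number) on each of the 14 arrays (columns), as log2 signal minus the 75th percentile of the array, with a dot where the probe was well above background. The 2 RClone-2 columns are brightest at Hoxa5 to Hoxa10, Hoxb7, Hoxc10, Hoxc11 and Hoxd9 and dark at Hoxc12, where CL19, 3C3 and RMAPC-1 are brightest.

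The first comparison set the 6 stem cell lines against RClone-2. Most detected genes of the middle and posterior part of clusters A and D, and Hoxc10 and Hoxc11, had far less signal in stem cells, while Hoxc12 and Hoxc13 at the posterior end of cluster C were higher. By limma 15 of the 20 HOX genes tested passed, at an adjusted p under 0.05, with 4 of them up and 11 down in stem cells. Of all 24837 genes tested 47.2% passed, 24.7% higher and 22.5% lower. The median log2 difference was -1.17 over the 20 HOX genes and 0.03 over all genes. Genes that entered the test through RClone-2 alone had to be high there. The 4 higher genes entered through stem cell lines alone, which favoured that direction. The counts therefore support nothing by themselves, and the p-values of such genes carry the same limit.

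**Figure D2:**
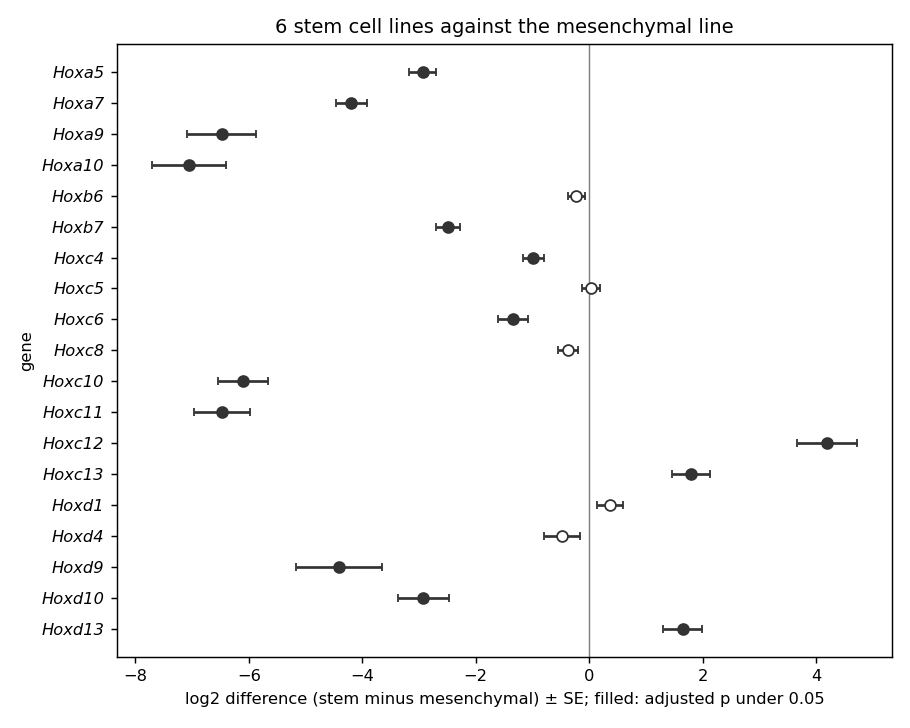
Log2 difference, stem cell lines minus mesenchymal line, of 19 tested HOX genes (points) with its SE (bars), filled where the adjusted p was under 0.05. Hoxc11, measured on every array, lies at -6.47. The fitted points of Hoxa9, Hoxa10, Hoxc10, Hoxc12, Hoxc13, Hoxd10 and Hoxd13 rest on a side that was mostly or wholly not above background, so their order is not a ranking. Hoxd9 was above background on 6 of 12 stem cell arrays.

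In cluster A, Hoxa7, Hoxa9 and Hoxa10, genes used in the trunk, limb and blood, read lower in the stem cells. Hoxa7 had levels of -0.38 and -0.32 on arrays A and B of RClone-2. In the stem cell lines it read -4.98 and -5.05 in Fi1, -4.93 and -4.98 in Fi2, -4.90 and -4.79 in Wk8, -4.75 and -4.42 in CL19, -4.12 and -3.67 in 3C3, and -4.02 and -3.88 in RMAPC-1. All 12 stem cell arrays were above background and none came near RClone-2, with a log2 difference of -4.19 ± 0.28 (SE, 6 lines against 1, limma adjusted p = 9.84e-05).

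Hoxa9, which with Meis partners keeps immature blood cells growing, read -1.58 and -1.56 in RClone-2 and was above background on none of the 12 stem cell arrays, where it read -8.69 to -6.07. The fitted log2 difference was -6.48 ± 0.61 (limma adjusted p = 4.2e-04), and because only a bound exists on the stem cell side, Hoxa9 was at least 25.2-fold lower there. For such bounds each dim array takes the higher of its own value and its lowest signal called above background for any probe. The bounds hold for this processing only and are not the detection limit of the probe itself. Over the alternatives the fitted difference of Hoxa9 ranged from -6.96 to -2.21.

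Hoxa10, a gene of the posterior trunk, limb and uterus, read 0.06 and -0.16 in RClone-2. In the stem cell lines it read -8.19 and -8.18 in Fi1, -6.85 and -8.46 in Fi2, -7.03 and -6.21 in Wk8, -6.97 and -6.57 in CL19, -5.64 and -6.44 in 3C3, and -8.17 and -6.49 in RMAPC-1. It was above background on 2 of these 12 arrays, Wk8 B and 3C3 A, and the fitted log2 difference was -7.05 ± 0.65 (limma adjusted p = 4e-04). Its size rests on stem cell values that were mostly not measured above background.

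Hoxa5, a gene of lung and thoracic development, read -0.17 on both RClone-2 arrays and -3.46 to -2.61 on the stem cell arrays by its brightest, homeobox probe. The log2 difference was -2.94 ± 0.24 (limma adjusted p = 2.49e-04). Its other probe gave a different picture, with 1.32 and 1.14 in RClone-2 and a difference of -7.09 ± 0.93 (limma adjusted p = 0.00165). By that probe Wk8 read -3.93 and -3.46, Fi1 -5.06 and -4.93, Fi2 -5.74 and -6.07, 3C3 -5.94 and -5.73, RMAPC-1 -6.95 and -6.93, and CL19 -7.35 and -8.16. It was thus above background in Fi1, Fi2, Wk8 and 3C3 and on no array of CL19 or RMAPC-1, where the homeobox probe still read -3.39 to -2.69. The other probe of Hoxa10 gave a fitted difference of -8.52 ± 0.62 (limma adjusted p = 1.44e-04), also with nearly all stem cell arrays not above background.

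**Figure D3:**
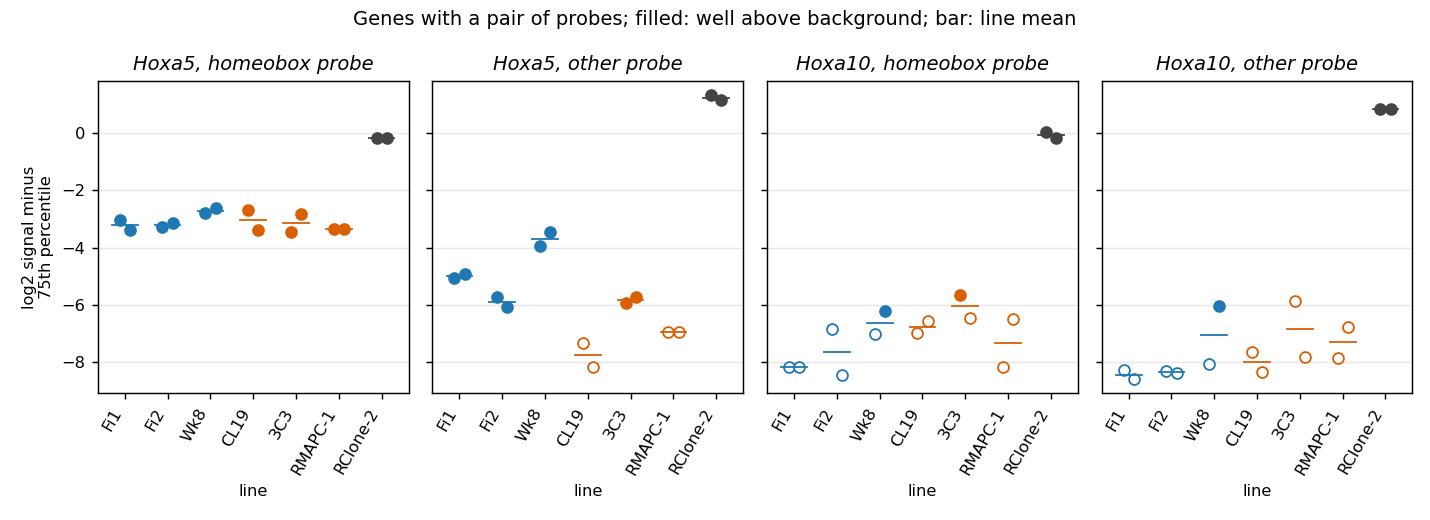
Level (log2 signal minus 75th percentile) on arrays A and B of each line by the pair of probes of Hoxa5 and of Hoxa10, filled where well above background, with the line mean as a bar. The homeobox probe of Hoxa5 is flat over the 6 stem cell lines, whereas its other probe spans -8.16 to -3.46 there.

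Hoxa2, a hindbrain gene at the anterior end of the cluster, was above background on array B of CL19 alone.

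In cluster B the detected genes were Hoxb6 and Hoxb7, neighbours expressed in trunk and blood progenitors. Hoxb7 read -0.80 and -0.66 in RClone-2 and -3.79 to -2.80 on the 12 stem cell arrays, a log2 difference of -2.49 ± 0.22 (limma adjusted p = 3.13e-04). Hoxb6 read -3.70 and -3.66 in RClone-2 and -4.20 to -3.48 in the stem cell lines, and the groups overlapped (-0.22 ± 0.15, adjusted p = 0.276). So probes that share 51 of 60 bases differed in whether RClone-2 stood apart. Hoxb1, which marks a hindbrain segment, and Hoxb13, a gene of prostate and tail, were above background on no array. Hoxb3, Hoxb8 and Hoxb9 were so on 1, 1 and 2 of the 12 stem cell arrays and on no RClone-2 array.

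Cluster C held genes that differed in both directions. Hoxc11, a gene of the hindlimb and lumbosacral region, read 1.70 and 1.33 in RClone-2. It was nevertheless above background on all 12 stem cell arrays, with -5.92 and -5.36 in Fi1, -5.38 and -4.58 in Fi2, -4.23 and -4.98 in Wk8, -4.02 and -4.45 in CL19, -5.33 and -5.35 in 3C3, and -4.90 and -5.02 in RMAPC-1. The difference was -6.47 ± 0.50, an 88.8-fold lower signal (limma adjusted p = 1.85e-04). Hoxc10, its neighbour with a like place of use, read -0.87 and -1.04 in RClone-2 and -8.06 to -6.26 in the stem cell lines, where array B of Wk8 alone was above background. The fitted difference of Hoxc10 was -6.10 ± 0.44 (limma adjusted p = 1.42e-04), and RClone-2 was at least 33.9-fold above the bone marrow lines, where no array was above background.

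Hoxc12, the next gene towards the posterior end, ran the other way. It read -8.02 and -8.48 in RClone-2, not above background. It read -6.06 and -5.35 in Fi1, -4.36 and -4.30 in Fi2, -4.89 and -5.51 in Wk8, -2.93 and -2.82 in CL19, -3.62 and -3.42 in 3C3, and -2.32 and -3.05 in RMAPC-1. Thus 11 of 12 stem cell arrays were above background, all but array A of Fi1, and no stem cell array overlapped RClone-2. The log2 difference was 4.20 ± 0.53 (limma adjusted p = 0.00143), at least 4.85-fold. With normexp background correction it was 0.75 and did not pass (adjusted p = 0.346).

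Hoxc13, the last gene of the cluster and known from hair and nail, read -6.65 and -7.82 in RClone-2, not above background, and was above it on 8 of 12 stem cell arrays. It read -5.65 and -5.79 in Fi2, -4.68 and -5.03 in CL19 and -3.80 and -5.50 in RMAPC-1, the lines in which it was detected. In Wk8 it read -5.65 and -5.84, in 3C3 -5.18 and -5.47, and in Fi1, where no array was above background, -6.15 and -6.52. The log2 difference was 1.80 ± 0.33 (limma adjusted p = 0.00632), at least 1.86-fold. It was lost without the B arrays (1.47, adjusted p = 0.0590) and with normexp (0.18, adjusted p = 0.908).

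The anterior members of cluster C differed less. Hoxc4 (-0.99 ± 0.19, limma adjusted p = 0.00699) and Hoxc6 (-1.34 ± 0.26, limma adjusted p = 0.00776) lay below RClone-2, and with normexp neither passed (-0.34 and -0.37). Hoxc5 (0.03 ± 0.16, adjusted p = 0.900) and Hoxc8 (-0.37 ± 0.18, adjusted p = 0.135), which pattern the neck and thorax, did not pass. Hoxc8 read -3.56 and -3.83 in RClone-2 and -4.65 to -2.78 in the stem cell lines.

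In cluster D, Hoxd9 and Hoxd10, genes of the limb and lower spine, had lower levels in stem cells than in RClone-2. Hoxd9 read -1.94 and -1.98 in RClone-2. It read -6.06 and -6.14 in Fi1, -6.17 and -7.07 in Fi2, -5.76 and -4.57 in Wk8, -6.31 and -7.10 in CL19, -8.41 and -7.07 in 3C3, and -3.87 and -7.84 in RMAPC-1. The arrays of RMAPC-1 thus differed by nearly the whole span of the stem cell lines. Hoxd9 was above background on 6 of the 12 stem cell arrays, 5 of 6 in blastocyst and 1 of 6 in bone marrow lines. The size of its difference rests in part on values not measured above background. The log2 difference was -4.40 ± 0.76 (limma adjusted p = 0.00490), and it was lost without the B arrays (-4.15, adjusted p = 0.0611) or without array B of RMAPC-1 (-4.07, adjusted p = 0.0502).

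Hoxd10 read -5.04 and -5.31 in RClone-2 and was above background on no stem cell array, at least 2.09-fold lower (-2.92 ± 0.44, limma adjusted p = 0.00296). With normexp Hoxd10 did not pass (-0.38, adjusted p = 0.692). Hoxd4, the hindbrain and neck gene, was detected in all lines but 3C3 and did not pass (-0.47 ± 0.32, adjusted p = 0.264). Hoxd1 did not pass either (0.36 ± 0.23, adjusted p = 0.243). Its other probe gave 0.08 ± 0.14 and was above background on no array. Hoxd13, which shapes digits, passed as higher (1.65 ± 0.34, limma adjusted p = 0.00994) although only 3 of 12 stem cell arrays were above background, Fi1 A, Fi1 B and Wk8 B. Its Fi1 levels were -5.77 and -5.61, against -7.56 and -8.57 in RClone-2, and the call was lost with the spike-in scaling (1.17, adjusted p = 0.0668) and with normexp (0.10, adjusted p = 0.959).

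**Figure D4:**
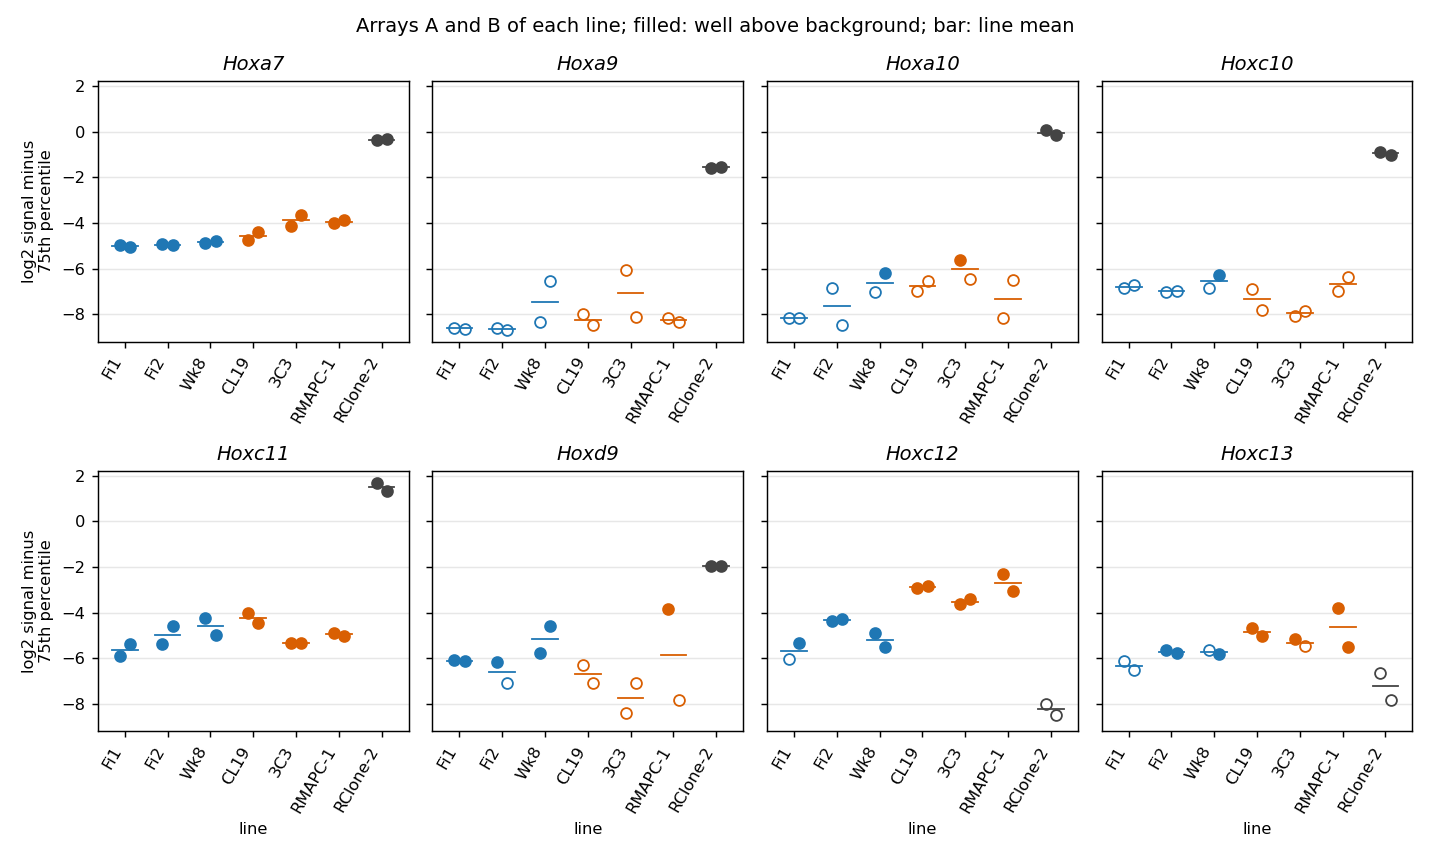
Level (log2 signal minus 75th percentile) of 8 HOX genes on arrays A and B of each line, filled where well above background, with the line mean as a bar (blue blastocyst, orange bone marrow, grey mesenchymal). RClone-2 is highest for Hoxa7, Hoxa9, Hoxa10, Hoxc10, Hoxc11 and Hoxd9 and lowest for Hoxc12 and Hoxc13.

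By origin, both sets of lines were set against the same RClone-2 arrays, so their values are not independent. In the blastocyst lines 16 of 20 HOX genes passed, 4 higher and 12 lower, where 48.7% of all genes passed, 22.3% higher and 26.4% lower. In the bone marrow lines 14 passed, 3 higher and 11 lower, where 46.3% of all genes passed, 26.8% higher and 19.4% lower. The 11 lower genes of the bone marrow lines were those named above for all stem cell lines, and the blastocyst lines had Hoxc8 as well (-0.77 ± 0.19, limma adjusted p = 0.0179, against 0.03 ± 0.19 in the bone marrow lines). Hoxc12 was at least 2.38-fold higher in blastocyst and at least 9.87-fold higher in bone marrow lines. Hoxd13 passed in the bone marrow lines too (1.44), but no array on either side was above background, so this call carries no measured level. Once the slide pair was a term, 9 HOX genes passed in the blastocyst lines, beside 6182 of all 24837 genes. Within slides 2 and 4, which hold 3C3, RMAPC-1 and RClone-2, 12 passed in the bone marrow lines, beside 8707 of all genes.

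The stem cell lines were then compared by their source, over the 16 HOX genes detected in at least 1 stem cell line. Hoxc12, Hoxc13, Hoxc8, Hoxc5 and Hoxa7 were lower in the blastocyst lines and none was higher. These 5 of 16 compare with 32.8% of all genes, 8.25% higher and 24.6% lower. The median log2 difference was -0.35 over the 16 HOX genes and -0.22 over all genes. Why the median of all genes was negative was not tested. Relative to that median Hoxc5 (-0.42) stood little apart.

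Hoxc12 differed most between the origins. Its 6 blastocyst arrays (-6.06 to -4.30, the values given above) all lay below its 6 bone marrow arrays (-3.62 to -2.32). The log2 difference was -2.05 ± 0.40 (SE, 3 lines against 3, limma adjusted p = 0.0165), 4.14-fold. Without RMAPC-1 it was -1.88 (adjusted p = 0.0579), and with normexp -0.72 (adjusted p = 0.294). Within slides 1 and 3, where CL19 alone stands for bone marrow, it was -2.21 and did not pass (adjusted p = 0.201).

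Hoxc8 read -4.65 to -4.20 on the blastocyst arrays and -4.28 to -2.78 on the bone marrow arrays, which overlapped at Fi2 B and 3C3 B (-0.80 ± 0.13, limma adjusted p = 0.0115). It read -4.15 and -2.78 on arrays A and B of CL19, and -3.30 and -4.28 on those of 3C3, and it no longer passed when A arrays (-0.78, adjusted p = 0.210) or B arrays (-0.82, adjusted p = 0.0548) were left out. Hoxa7 (-0.80 ± 0.21, limma adjusted p = 0.0344) had all blastocyst arrays below all bone marrow arrays; the closest were Wk8 B and CL19 A. Within slides 1 and 3 it was -0.35 (adjusted p = 0.323). Hoxc13 (-0.99 ± 0.25, limma adjusted p = 0.0315) also had no overlap, with -6.52 to -5.65 on blastocyst and -5.50 to -3.80 on bone marrow arrays, of which 3 and 5 of 6 were above background. Hoxc5 (-0.42 ± 0.12, limma adjusted p = 0.0431) overlapped, with -5.95 to -5.14 against -5.66 to -4.85. Of 25 alternatives, 16 ended the call of Hoxc13, 17 that of Hoxa7 and 17 that of Hoxc5, among them leaving out Fi1, Fi2 or RMAPC-1 for each of the 3. In 1 more, on unscaled values, Hoxc5 did not pass and turned to 0.06.

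Of the other 11 genes, Hoxb6 (-0.37 ± 0.12, adjusted p = 0.0568) and Hoxb7 (-0.50 ± 0.16, adjusted p = 0.0624) came nearest to the threshold. Hoxa5 was 0.13 ± 0.18 (adjusted p = 0.600) by its homeobox probe and 1.98 ± 0.70 (limma adjusted p = 0.0752) by its other one. Hoxd9 read higher in the blastocyst lines (0.80 ± 0.57, adjusted p = 0.316), with 5 of 6 blastocyst and 1 of 6 bone marrow arrays above background. Hoxc11 (-0.23 ± 0.38) and Hoxc6 (-0.04 ± 0.20) were far from passing.

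Scaling moved the share of called genes that were higher in blastocyst lines. It was 25.1% here, 39.8% after quantile normalization, 41.7% when the percentile came from probes detected everywhere, 40.5% after median centring, 40.4% with normexp, 82.6% unscaled and 15.7% by the spiked-in transcripts. For stem cells against RClone-2 that share was 52.4%, with 63.2% unscaled and 29.1% by the spiked-in transcripts. Between blastocyst and bone marrow lines the median difference of all genes moved from -0.22 to 0.26 unscaled and -0.42 by spiked-in transcripts. When the slide pair entered the model, 0 HOX genes passed for blastocyst against bone marrow lines by limma, where 6512 of all genes had an unadjusted p under 0.05 and 0 passed.

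**Figure D5:**
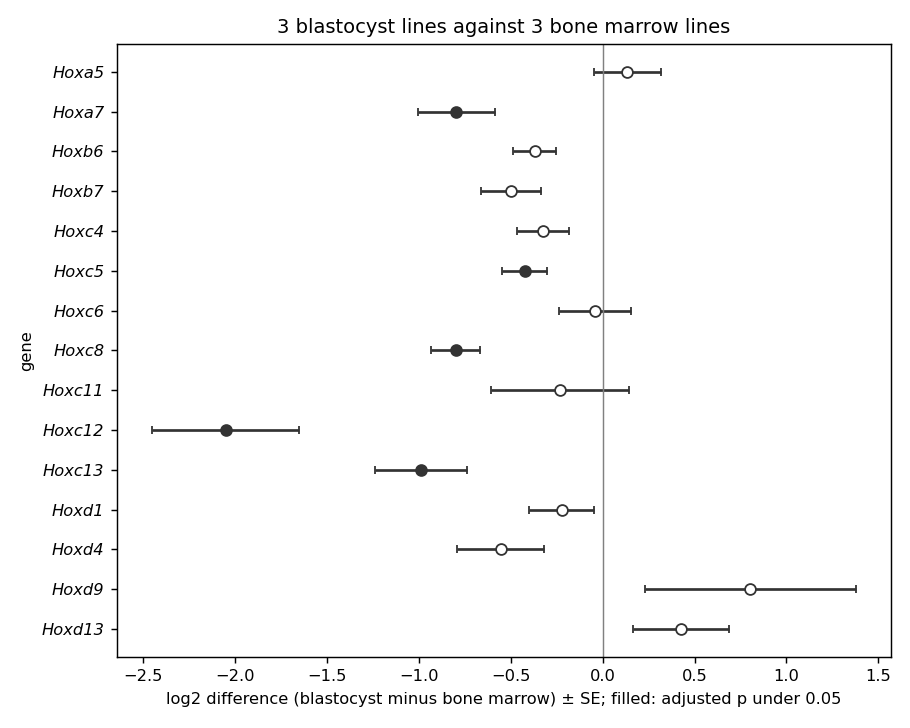
Log2 difference, blastocyst minus bone marrow lines, of 15 HOX genes detected in at least 1 stem cell line (points) with its SE (bars), filled where the adjusted p was under 0.05. Hoxc12 lies lowest at -2.05, and the 5 filled points are all below 0.

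Genes that act with the HOX proteins or on the clusters were described from lists, whose counts are to be read beside the 47.2% of all genes that passed between stem cells and RClone-2 and the 32.8% that passed between the origins. Of 7 measured cofactors, TALE homeodomain proteins that bind DNA together with HOX proteins, 2 rose and 1 fell in stem cell lines relative to RClone-2. Meis3 was at least 298-fold higher (8.47 ± 0.20, limma adjusted p = 2.16e-06) and Pbx4 at least 5.66-fold higher (3.87 ± 0.29, limma adjusted p = 1.59e-04). Between the origins 2 of 7 passed, both higher in blastocyst lines, among them Pbx3 (0.81 ± 0.23, limma adjusted p = 0.0410).

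Among 14 Polycomb genes 4 stood higher and 3 lower in stem cells than in RClone-2, a share near that of all genes. The accessory subunits Mtf2 (1.73 ± 0.14) and Phf19 (-1.13 ± 0.13), both of which guide the H3K27 methylase, moved apart, as did Cbx8 (1.05 ± 0.19), a reader of that mark, and Ring1 (-1.08 ± 0.15), a histone H2A ligase. Between the origins 6 of 14 passed, 3 in each direction, and Cbx7, another reader, was lowest in blastocyst lines (-3.82 ± 1.03, limma adjusted p = 0.0363). Of 8 Trithorax and demethylase genes 4 stood higher and 0 lower in stem cells than in RClone-2: Kmt2b (1.78 ± 0.16), an H3K4 methylase, Ash2l (1.67 ± 0.15), Men1 (1.13 ± 0.16), and Kdm6b (1.65 ± 0.15), which removes the Polycomb mark. Dpy30, a core subunit, alone passed between the origins (-1.33 ± 0.14, limma adjusted p = 0.00534).

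The retinoic acid pathway had 6 of 9 genes past the threshold, 2 upwards and 4 downwards in stem cell lines. Cyp26a1, which breaks retinoic acid down, was higher (9.04 ± 1.07, limma adjusted p = 0.00111), and Cyp26b1, which does the same, was lower (-5.23 ± 0.85, limma adjusted p = 0.00388). The binding protein genes Crabp1 (at least 63.6-fold) and Crabp2 (-6.19 ± 0.29) were lower, as was the receptor gene Rarb (at least 7.45-fold). Aldh1a1, which makes retinoic acid, was at least 3.00-fold higher. Between the origins 3 of 9 passed, Rxra (0.79), Rarb and Crabp1, although Rarb and Crabp1 were above background on no stem cell array.

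Of 5 measured CDX, ParaHox and related homeobox genes, Gbx2 alone was higher in the stem cell lines (1.32 ± 0.29, limma adjusted p = 0.0130). Cdx2, a direct activator of HOX genes, did not pass (-0.32 ± 0.34, adjusted p = 0.467). Gsx2 (-0.95), Gbx2 (-0.78) and Gsx1 (-0.55) were lower in blastocyst than in bone marrow lines. Of 12 genes that flank the clusters 1 was higher, Skap2 (0.62), and 4 lay lower in stem cells, Hibadh (-2.49), Snx10 (-1.28), Tax1bp1 (-1.15) and Snx11 (-0.89), and 6 passed between the origins. The median over the 12 flanking genes was -0.23.

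The promoters of Hoxa9 and Hoxd9 are shown because the stem cells had less signal of both these posterior genes. RefSeq promoters (GRCr8) were at hand for 12 of the 27 genes. Each sequence is the 250 bases before the gene's start, and capitals mark matches on either strand to the TATA box motif TATAAA, to CCAAT, or to TGATTNAT, a form bound by PBX and HOX together.
Hoxa9: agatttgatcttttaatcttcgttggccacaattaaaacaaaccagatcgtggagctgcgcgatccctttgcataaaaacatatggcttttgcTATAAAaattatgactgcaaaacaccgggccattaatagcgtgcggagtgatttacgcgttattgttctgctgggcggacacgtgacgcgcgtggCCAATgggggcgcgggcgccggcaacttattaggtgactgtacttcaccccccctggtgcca
Hoxd9: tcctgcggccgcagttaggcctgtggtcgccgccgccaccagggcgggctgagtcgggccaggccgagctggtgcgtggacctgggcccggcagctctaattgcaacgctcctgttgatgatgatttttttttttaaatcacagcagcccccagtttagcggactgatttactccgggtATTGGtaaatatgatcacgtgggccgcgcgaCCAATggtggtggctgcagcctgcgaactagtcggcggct
They lie at chr4:82657049-82657298 (minus strand) and chr3:80007756-80008005 (plus strand) of GRCr8. Hoxa9 held 1 TATAAA and 1 CCAAT, Hoxd9 held 2 CCAAT and no TATAAA, and neither held TGATTNAT. Of 33469 rat promoters of that length 12.9% held TATAAA, 34.0% CCAAT and 2.82% TGATTNAT. These matches are descriptions of the sequences, and other forms of PBX and HOX sites were not searched.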

How the data were processed

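Each of 14 arrays took 1 µg of total RNA labelled with Cy3, to which 10 control transcripts had been added, per the labels' protocols. Spots were quantified with Agilent Feature Extraction 10.7.3.1, per the submitters' processing notes. The deposited scanner tables give processed, mean and local background signals as intensities, besides detection flags (other values). In the deposited series table the log2 values, once sorted, equal the log2 processed signals of the same array, and were not scaled between arrays. The alignment of probes to rn4 is that of the files.

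Spots flagged as outliers were left out, and spots of one probe were averaged. Log2 processed signals had the array's 75th percentile subtracted. Genes were named through the RefSeq GRCr8 table by accession (17374 probes), symbol (2774) or synonym (632), and 20232 of 41012 probes kept the files' name. Tests covered genes whose brightest probe passed the well-above-background flag on arrays A and B of 1 or more lines. The model was limma's lmFit and eBayes (limma 3.58.1, R 4.3.3) on the line means, leaving 4 residual degrees of freedom. P-values were adjusted by Benjamini and Hochberg's method over 24837 genes, and 0.05 was the threshold. The single mesenchymal line is assumed to vary like the others. The fit was tested on simulated data. Correlations of A minus B between lines ran from -0.241 to 0.184, and the main fit did not pair samples by letter. The A arrays lay on slides 1 and 2 and the B arrays on slides 3 and 4, so the letters also divide the slides.

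Every HOX gene was counted and nearly all were described, and up to 4 members of each list that passed were named by size. Rarb, Aldh1a1, Skap2 and Cdx2 were named outside that rule, after their values were seen. The members and lists were chosen with earlier results of these data known. Single genes that entered the counts are not reported here. Alternatives were other background correction, scaling, filters, probe choice, slide and strain terms, a replicate block, and leaving out lines or arrays. Fits within slides were added after the data were seen. Figures used matplotlib 3.10.9.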

Additional observations from a re-analysis of the deposited data

Results flagged for a closer look

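Between blastocyst and bone marrow lines 5 HOX genes differed by limma's test of that difference: Hoxc12 (log2 difference -2.05), Hoxc13 (-0.99), Hoxc8 (-0.80), Hoxa7 (-0.80) and Hoxc5 (-0.42), all lower in the blastocyst lines.

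Among the 6 stem cell lines RMAPC-1 stood apart in Hoxd1, at -5.54 against -5.99 for the nearest line and -6.19 for the lowest, a gap of 0.686 of the range, past Dixon's critical value. It was 1 of 20 genes looked at in this way, and chance gives about 1 in 20. Hoxd1 entered these genes through RMAPC-1 alone, the only line in which it was detected. A high value there was thus favoured, that rate does not hold for it, and the gap supports nothing by itself. The levels lie near the lowest signals marked above background, and the other Hoxd1 probe was above background on no array.

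A probe inside cluster B that does not carry a HOX name in the files, LOC100365058, described there as like homeo box B2, was above background on both arrays of Fi1, Fi2, Wk8 and CL19 and on no array of 3C3, RMAPC-1 or RClone-2. The first 4 lines lie on slides 1 and 3 and the others on slides 2 and 4, so line and slide cannot be told apart here. Its mean over the stem cell lines was -5.80, against -6.96 in RClone-2.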

How the results depend on the processing

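With normexp background correction, which adds an offset of 50 to the signal, 8 HOX genes passed against the mesenchymal line in each of the 3 comparisons, beside 5849, 5530 and 5741 of all 24835 genes. Between the origins 0 passed, beside 1238 of all genes (5780 at an unadjusted p under 0.05 by limma). The negative differences of Hoxa5, Hoxa7, Hoxa9, Hoxa10, Hoxb7, Hoxc10, Hoxc11 and Hoxd9 kept their calls with values of -4.51 to -1.70. Hoxc4, Hoxc6 and Hoxd10, lower in stem cells, and Hoxc12, Hoxc13 and Hoxd13, higher there, lost theirs. Whether their faint signals or the added offset ended these calls was not tested. For blastocyst lines against RClone-2 a term for the pair of slides left 9 calls and the slide as a block 10, beside 6182 and 8574 over all genes. For bone marrow lines, requiring detection in 2 lines left 9, since fewer genes were then tested, beside 10450 of all 22792 genes. Leaving out a line or the A or B arrays gave 13 to 15 calls for all stem cell lines, 13 to 16 for blastocyst and 12 to 15 for bone marrow lines. Over all genes, leaving out a line gave 10504 to 12430, 10330 to 12405 and 9893 to 12298 calls. Leaving out the A or B arrays gave fewer.

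Between the origins 5 calls became 2 by quantile normalization, with the percentile over detected probes, unscaled or by median centring, 3 with strain as a covariate, 1 with the slide as a block and 0 with the term for the pair of slides or within slides 1 and 3, where 6512 and 5257 of all genes had an unadjusted p under 0.05 by limma. Calls over all genes fell as well, from 8158 to 5752 by quantile normalization, 6049 with the detected percentile, 7142 unscaled and 5982 by median centring. They were 6231 with strain as a covariate and 3191 with the slide as a block. On unscaled values 1 of the 2 HOX calls was Hoxa5, higher in blastocyst lines (0.61, adjusted p = 0.0419 by limma), which had not passed before. Leaving out one line or array set gave 1 to 5, with 1 without RMAPC-1, the A arrays or the B arrays, and 2 without Fi1 or Fi2. Over all genes these omissions gave 2580 calls (without the A arrays) to 8371 (without array B of RMAPC-1), with 3100 without RMAPC-1. With the replicate block over arrays, whose letters also divide the slides, 15, 15, 15 and 6 HOX genes passed in the 4 comparisons. Of all 24670 genes then tested, 13154, 13441, 12952 and 10223 passed. Detection by the weaker flag of the software gave 19 to 23 HOX genes per line.

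Against RClone-2 Hoxd1 turned to -0.12 with spike-in scaling. Hoxc5 turned to -0.00487 by quantile normalization, -0.047 by median centring, -0.45 with spike-in scaling, and -0.0016 without 3C3, with -0.14 to 0.20 over all such omissions. Between the origins unscaled values turned Hoxd1 (0.26), Hoxc4 (0.16), Hoxc11 (0.25), Hoxc5 (0.056), Hoxc6 (0.44) and Hoxb6 (0.11) to higher in blastocyst lines. Hoxc6 was also positive by quantile normalization (0.15), the detected percentile (0.10) and median centring (0.078), and without Fi2, RMAPC-1 or the A arrays, with -0.29 to 0.21 over all omissions. Hoxc11 was positive without Fi1 or CL19, with -0.48 to 0.075 over all omissions. Hoxa5 turned to -0.063 with spike-in scaling, -0.035 without Wk8 (up to 0.22 without Fi2) or with the strain covariate, and -0.000810 with the slide term, the slide block and within slides 1 and 3. Hoxd13 was -0.091 without the B arrays and 0.94 without the A arrays. Of these, Hoxc5 between the origins alone had passed as reported. The cause was not tested.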

Other observations

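Within the spans of the member probes on rn4, 18 further probes lay without a HOX name in the files, 7 of them detected in RClone-2 and 6 in a stem cell line. A probe of cluster A described as like homeobox A4, LOC100360577, read 0.32 and 0.28 in RClone-2 and -5.73 to -3.58 on the stem cell arrays, 11 of 12 of which were above background. An unnamed transcript in cluster D, TC611746 at chr3:57325178-57325237 on the minus strand, opposite to the HOX genes there, read 1.54 and 1.28 in RClone-2 and -8.56 to -4.28 on the stem cell arrays, 1 of which was above background. In cluster A the probe BF557905, near that of Hoxa9, read 0.57 on average in RClone-2 and was above background on no stem cell array. A probe in cluster C whose description names the Hoxc9 gene averaged -0.13 in RClone-2 and differed by -0.25 in the stem cell lines. These probes were chosen after their values were seen and were not tested.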
